A study of Homo sapiens with 32 samples.

Results

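Follistatin, activin, BMP and TGF-β signalling was followed through 10 genes in cultures of a human esophageal epithelial line, chosen by symbol among the 19345 of the expression table. They are the ligand genes INHBA, BMP2, BMP6, TGFB1 and TGFB2, the secreted antagonists FST and FSTL3, the intracellular inhibitor SMAD7, and the response genes ID1 and TGFBI. All 10 were in the table and 9 of the 10 passed the filter for testing, which asked for at least 1 TPM in at least 6 of the 32 libraries. TPM, the usual length-corrected transcript unit, is a level corrected for gene length and library total, so that levels of different genes can be set side by side. The filter left out BMP6, which was listed at 0 in 31 of 32 libraries.

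The cells were EPC2, an esophageal epithelial line immortalised with telomerase (hTERT) and labelled wild type in every group. Cells taken on day 0, before seeding into Matrigel, gave 10 libraries (monolayer), and day 3 spheroids gave 9 (D3). Spheroids collected on day 11 after exposure to IL-13 at 20 ng/ml since day 3 gave 6 libraries (D11 IL-13), and spheroids collected on day 11 with no cytokine gave 7 (D11 untreated). All spheroids grew in undiluted Matrigel. Their medium was a serum-free one for keratinocytes with calcium chloride added, and until day 3 it held Y27632, an inhibitor of ROCK kinases. The labels name 2 batches, with 5 monolayer, 4 D3, 5 D11 IL-13 and 4 D11 untreated libraries in batch 1 and 5, 5, 1 and 3 in batch 2. EPC2 is a single line, and the labels do not say which libraries of a group came from separate cultures, so that p-values measure the spread between these libraries, which may be technical.

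Activins, BMPs and TGF-βs are secreted dimers that bind pairs of serine/threonine kinase receptors. Activins and TGF-βs pass the signal to SMAD2 and SMAD3, and BMPs to SMAD1, SMAD5 and SMAD9. Follistatin (FST) and follistatin-like 3 (FSTL3) bind activin outside the cell and keep it from its receptors, and SMAD7 blocks the receptors from within. ID1 is a direct target of BMP SMADs in many cell types and encodes an inhibitor of helix-loop-helix transcription factors, and TGFBI encodes a matrix protein named for its induction by TGF-β. In stratified epithelia TGF-β is best known for restraining growth, and in the mouse esophagus BMP signalling is known to be active in the differentiating layers.

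The table gave values to 1 decimal with no read counts, so the depth behind a value is unknown. The 13 mitochondrially encoded genes took a mean of 47.6% of the total in monolayer, 47.8% at D3, 21.0% at D11 with IL-13 and 21.9% at D11 untreated. Since TPM sums to a fixed total, every level is relative to that share. Values with these genes removed are given for several of the genes described whose call they change. A pair of D3 libraries went against their batch on the first principal component: library 4 of batch 1 (10.5) lay with libraries of batch 2 (9.61 to 12.3), and library 7 of batch 2 (-24.5) lay near libraries of batch 1 (-25.5 to -7.56). D11 IL-13 library 1 stood at 78.2 on that axis, against 49.4 to 56.7 for the other 5. Untreated D11 libraries stood at 71.4 to 76.0 in batch 2 and at 60.2 to 65.1 in batch 1. The batch of IL-13 library 1 is not known. The squamous keratin genes KRT5 and KRT14 were abundant in every group (KRT5 averaged 13755 TPM in monolayer). The other markers of that 9-gene list varied. KRT4, a keratin of the esophageal upper layers, was listed at 0 in all 10 monolayer libraries and averaged 71.9 TPM at D3, 761 TPM at D11 with IL-13 and 15.6 TPM at D11 untreated. KRT13, its partner, averaged 0.11 TPM in monolayer, 67.1 TPM at D3, 220 TPM at D11 with IL-13 and 11.4 TPM at D11 untreated, and IVL, a cornified envelope gene, averaged 0.63 TPM in monolayer, 22.8 TPM at D3, 87.6 TPM at D11 with IL-13 and 446 TPM at D11 untreated. At D11, KRT15 averaged 255 TPM with IL-13 and 110 TPM untreated, SOX2 139 and 46.0 TPM, TP63 21.0 and 11.8 TPM, and CDH1 19.8 and 20.4 TPM. The list's summed level was 19101 to 23853 TPM in monolayer, 56509 to 84126 TPM at D3, 50200 to 74697 TPM at D11 with IL-13 and 46429 to 71055 TPM at D11 untreated. Nearly all of it was KRT5 and KRT14. Of the fibroblast markers, COL1A2 and COL3A1 were listed at 0 in every library of every group, while the list's summed level was 6.2 to 14.0 TPM in monolayer, 8.1 to 30.4 TPM at D3, 26.8 to 48.0 TPM at D11 with IL-13 and 58.2 to 78.2 TPM at D11 untreated, where nearly all of it was COL1A1. Among the 12 immune and endothelial markers, of which 11 were in the table, PTPRC was listed at 0 in every monolayer and D3 library. That list's sum was 195.5 to 284.6 TPM in monolayer, 221.5 to 267.1 TPM at D3, 435.4 to 559.3 TPM at D11 with IL-13 and 521.6 to 587.4 TPM at D11 untreated, made up almost wholly of CD68, CSF1R and CD14. The part of these markers in the results was not tested. In bulk RNA, fewer cells of a type and less RNA per cell cannot be told apart.

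The genes lie on several chromosomes of GRCh38 in the GENCODE 29 annotation. FST is at chr5:53480409-53487134 and TGFBI at chr5:136028895-136063818, both on the plus strand. INHBA is at chr7:41667168-41705834 on the minus strand, BMP2 at chr20:6767664-6780280 and ID1 at chr20:31605283-31606515 on the plus strand. FSTL3 is at chr19:676365-683399 on the plus strand and TGFB1 at chr19:41301587-41353911 on the minus strand. TGFB2 is at chr1:218346235-218444619 and BMP6 at chr6:7726797-7881422 on the plus strand, and SMAD7 is at chr18:48919853-48952052 on the minus strand. TGFB1 shares exonic bases with HNRNPUL1 on the opposite strand, which reached 58.1 TPM. How strand was handled in counting is not given in the sources used here, so reads from the shared bases may not be told apart. TGFB2 shares exonic bases with TGFB2-OT1 on its own strand, which was not analysed here.

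Start-proximal sequence is shown for a ligand, a matrix target and a BMP target whose levels moved in different ways, as a reference for the values that follow. The windows are from RefSeq (GRCh38.p14), read 5′ to 3′ on the gene's strand, and they end before the GENCODE 29 exon that overlaps the RefSeq start. For INHBA that exon is not the first: GENCODE places further exons upstream, so the stretch lies within the gene as GENCODE draws it. The INHBA stretch covers chr7:41703109-41703340, the TGFBI stretch chr5:136028738-136028894 and the ID1 stretch chr20:31605039-31605282.
INHBA: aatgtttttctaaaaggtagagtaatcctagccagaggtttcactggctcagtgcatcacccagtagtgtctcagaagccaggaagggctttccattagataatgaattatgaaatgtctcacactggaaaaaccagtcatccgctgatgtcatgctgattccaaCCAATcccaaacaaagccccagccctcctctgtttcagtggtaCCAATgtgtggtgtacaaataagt
TGFBI: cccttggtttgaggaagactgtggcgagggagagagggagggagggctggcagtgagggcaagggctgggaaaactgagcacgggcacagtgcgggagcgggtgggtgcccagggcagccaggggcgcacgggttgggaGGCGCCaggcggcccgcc
ID1: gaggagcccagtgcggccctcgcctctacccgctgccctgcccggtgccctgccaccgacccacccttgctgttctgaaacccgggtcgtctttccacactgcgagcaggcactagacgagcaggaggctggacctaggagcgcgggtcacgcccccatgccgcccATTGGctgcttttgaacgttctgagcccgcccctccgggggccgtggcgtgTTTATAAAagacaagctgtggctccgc
Capitals mark matches, on either strand, to the 6 motifs searched: the AP-1 element TGANTCA, the SMAD element GTCTAGA, the GC-rich SMAD element GGCGCC, the CCAAT box, the TATA box TATAAA and the STAT6 element (TTC and GAA with 4 bases between).

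RefSeq windows of 250 bases before the start were found for 9 of the 10 genes, all but BMP2, with 3 starts for SMAD7. INHBA held 2 CCAAT boxes, 85 and 42 bases before its RefSeq start, and ID1 held 1 CCAAT box at 84 bases and 2 overlapping TATA boxes at 33 and 31 bases, the pair lying on opposite strands. TATA boxes were also found in INHBA at 11 bases, in bases left out of the stretch shown, and in FSTL3 and TGFB2 at 29 bases. SMAD7 start 2 held a TATA box at 35 bases. Further CCAAT boxes were found in FST at 196 bases and in BMP6 at 78 bases. The GC-rich SMAD element was found in TGFBI, 111 bases upstream, and in FSTL3, 125 bases upstream. FST held an AP-1 element at 160 bases and the SMAD element at 37 bases, both within bases that GENCODE counts as exon. Among the 35116 RefSeq windows of this length, 32% held a CCAAT box, 16.4% the GC-rich SMAD element, 10.7% the TATA box, 6.57% the AP-1 element, 5.38% the STAT6 element and 1.20% the SMAD element. None of the 9 genes' windows held the STAT6 letters. These matches describe the letters and do not mark sites in use.

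**Figure D1:**
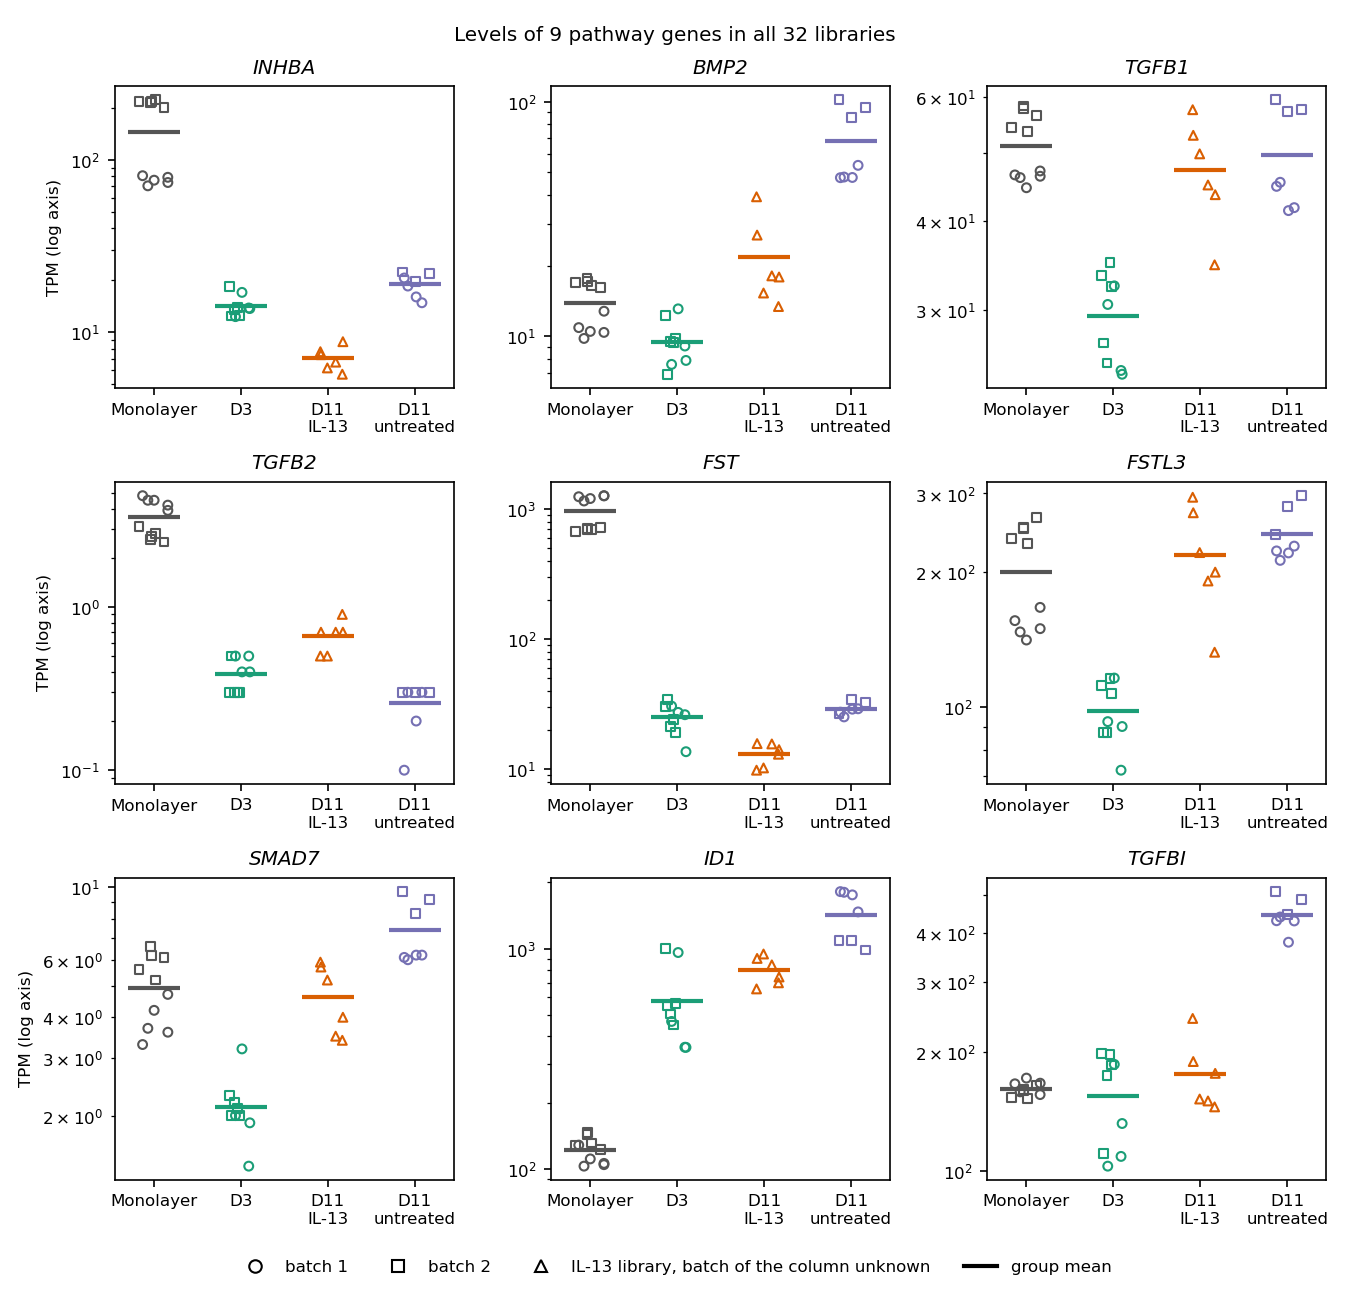
Level of 9 genes in each of 32 libraries (TPM, log axes that differ between panels), with circles for batch 1, squares for batch 2, triangles for D11 IL-13 libraries whose batch cannot be read from the column name, and bars for group means. FST is at most 34.4 TPM in the spheroid libraries, against 675.9 to 1270.7 TPM in monolayer, while ID1 is at 356.4 TPM or more in the spheroid libraries and at most 146.5 TPM in monolayer.

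The first comparison sets D3 spheroids against monolayer cells. Matrigel, the medium with added calcium chloride and Y27632 cannot be told apart in it. Activin and follistatin transcripts fell together, the level of FST 38.3 times and of INHBA 10.2 times lower as ratios of means, and TGFB2 dropped to near 0. ID1, the BMP target, moved the other way and was 4.72 times higher at D3. Of the 9 tested genes, 7 were lower, 1 was higher and TGFBI did not pass (limma, adjusted p under 0.05 over 12221 genes). Of all tested genes 68.2% were called lower and 12.7% higher, so the count of 7 lower is near the background. Libraries did not overlap for 6 of the lower genes and for ID1, as for 39.0% of all tested genes downwards and 5.29% upwards. The median log2 change of the 9 was -0.93, beside -0.44 over all tested genes.

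Among the ligands, INHBA, which encodes the βA subunit of activin A, was at 12.3, 13.7 and 18.3 TPM (lowest, median, highest) at D3, against 70.5, 140.1 and 222.5 TPM in monolayer. No D3 library reached the lowest monolayer library, and the monolayer libraries themselves split by batch, 199.5 to 222.5 TPM in batch 2 and 70.5 to 80.7 TPM in batch 1. INHBA fell by 3.13 ± 0.16 (SE) on the log2 scale (limma adjusted p = 3.7e-17), with a log2 change of -3.84 in batch 2 and -2.35 in batch 1. TGFB2, 1 of the 3 TGF-β ligand genes, was at 0.3, 0.4 and 0.5 TPM at D3, against 2.5, 3.5 and 4.8 TPM in monolayer. Its ranges did not overlap, and its log2 change on the scale of TPM plus 1 was -1.68 ± 0.073 (limma adjusted p = 4.5e-19), a scale that understates the change of so low a gene. TGFB1, the most widely expressed of those ligand genes, was at 24.3, 30.5 and 35 TPM at D3, against 44.6, 50.4 and 58.2 TPM in monolayer. All D3 libraries were below all monolayer libraries, and TGFB1 fell by 0.80 ± 0.076 (limma adjusted p = 7.7e-11). BMP2, a BMP ligand, was at 6.9, 9.4 and 13.1 TPM at D3, against 9.8, 14.5 and 17.7 TPM in monolayer. Those ranges overlapped, and the log2 change of -0.52 ± 0.15 (limma adjusted p = 0.0022) was -0.023 under median-of-ratios scaling (p = 0.92), -0.044 under quantile scaling (p = 0.83) and -0.21 in batch 1 alone (p = 0.14), all limma adjusted p-values.

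Both secreted antagonists fell, FST far more than FSTL3. FST was at 13.6, 26.2 and 34.4 TPM (lowest, median, highest) at D3, and the batches did not differ there by the test (limma adjusted p = 0.78). In monolayer its 5 libraries of batch 2 held 710.8, 718.3, 694.7, 697.9 and 675.9 TPM, and those of batch 1 held 1207.9, 1265.9, 1247.4, 1270.7 and 1156.7 TPM. The highest D3 library was far below the lowest monolayer library. The log2 change of FST was -5.18 ± 0.15 (limma adjusted p = 1.7e-23), with -4.74 in batch 2 and -5.66 in batch 1. FSTL3 was at 72.2, 92.7 and 116.0 TPM at D3, against 141.1, 199.4 and 265.6 TPM in monolayer. It did not overlap between the groups and fell by 1.02 ± 0.11 on the log2 scale (limma adjusted p = 1.9e-09). SMAD7 was at 1.4, 2.0 and 3.2 TPM at D3, against 3.3, 4.95 and 6.6 TPM in monolayer, a log2 change of -0.93 ± 0.098 (limma adjusted p = 6.7e-10).

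The response genes did not share a direction. ID1 was at 356.4, 505.3 and 997.1 TPM at D3, against 103.1, 125.5 and 146.5 TPM in monolayer. Every D3 library was above every monolayer library, and D3 libraries 4 and 5, at 959.5 and 997.1 TPM, stood above the other 7, which reached at most 561.6 TPM. The log2 change was 2.14 ± 0.16 (limma adjusted p = 5.8e-13), and 2.12 in batch 2 and 2.14 in batch 1. TGFBI was at 103.1, 174.5 and 198.5 TPM at D3, against 152.8, 160.2 and 172.0 TPM in monolayer. D3 libraries lay on both sides of the narrow monolayer range, and the log2 change of -0.11 ± 0.11 did not pass (limma adjusted p = 0.37). Under median-of-ratios scaling the change of TGFBI was 0.43 (limma adjusted p = 0.0041), and it was 0.10 in batch 2 (adjusted p = 0.49) and -0.34 in batch 1 (adjusted p = 0.033). Those batch values rest on the labels of D3 library 4 (batch 1, 186.3 TPM) and library 7 (batch 2, 111.2 TPM). Both went against their batch on the first principal component.

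**Figure D2:**
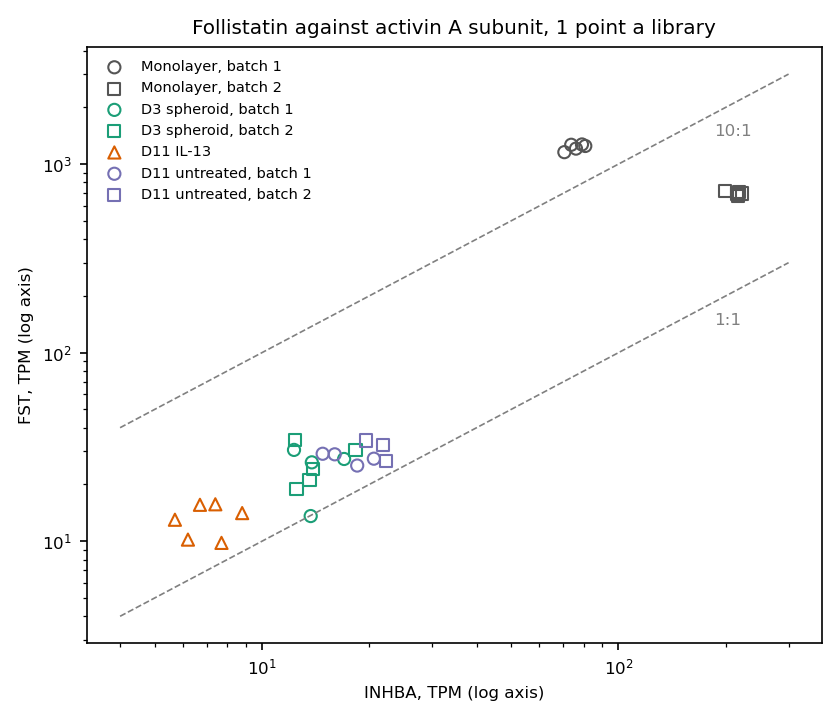
Level of FST against level of INHBA in each library (both in TPM, log axes), with dashed lines where FST equals INHBA and where it is 10 times INHBA. Monolayer libraries form 2 groups by batch at the upper right, and spheroid libraries of each group lie at lower levels of both genes with ratios between 0.993 and 2.77.

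FST and INHBA differed between the batches in opposite directions while the cells were in monolayer. FST averaged 700 ± 16.3 TPM in batch 2 and 1230 ± 47.7 TPM in batch 1 (SD, n = 5 each), a log2 difference of -0.81 ± 0.16 (limma adjusted p = 8.8e-05). INHBA averaged 214 ± 8.70 TPM in batch 2 and 76.0 ± 4.08 TPM in batch 1, a log2 difference of 1.48 ± 0.094 (limma adjusted p = 1.1e-11). Between the monolayer batches 62.1% of all tested genes differed. The ratio of FST to INHBA was 3.27 ± 0.19 in batch 2 and 16.2 ± 0.64 in batch 1 of monolayer. In spheroids it was 1.80 ± 0.53 at D3 (n = 9), 1.88 ± 0.43 at D11 with IL-13 (n = 6) and 1.56 ± 0.29 at D11 untreated (n = 7). The ratio of FST to FSTL3 was 2.83 ± 0.12 in batch 2 and 8.10 ± 0.40 in batch 1 of monolayer, 0.264 ± 0.083 at D3, 0.065 ± 0.024 at D11 with IL-13 and 0.120 ± 0.0081 at D11 untreated, so that FSTL3 was the more abundant of the 2 transcripts in every spheroid library. These ratios are descriptions, with no test.

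Other genes of the pathway also moved at D3, mostly downwards. All 10 tested receptor and co-receptor genes were lower, and so were 17 of 18 SMAD and regulator genes, 8 of 9 latency and activation genes, 5 of 6 other ligand genes and 4 of 6 other antagonist genes. The lists' median log2 changes were -0.62, -0.69, -1.09, -0.86 and -1.02, beside -0.44 over all tested genes, of which 68.2% were lower. Under median-of-ratios scaling the median of all genes moved by 0.43 and the calls over all genes split into 4061 higher and 4050 lower, beside 1556 and 8339 on deposited TPM.

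The type II TGF-β receptor TGFBR2 was at 10.4 to 12.1 TPM at D3, against 39.9 to 50.8 TPM in monolayer, a log2 change of -1.93 ± 0.052 (limma adjusted p = 2.4e-24). RGMB, a BMP co-receptor, was at 4.9 to 6.7 TPM, against 19.6 to 26.1 TPM in monolayer. THBS1, which encodes thrombospondin 1, an activator of latent TGF-β, averaged 101 ± 30.4 TPM at D3 and 3370 ± 429 TPM in monolayer, 33.4 times lower. LTBP2, a latent TGF-β binding protein gene, was 7.25 times lower, at 2.3 to 3.4 TPM against 14.8 to 25.0 TPM, while ITGB8, an integrin subunit that takes part in TGF-β activation, was higher, at 5.0 to 6.8 TPM against 2.6 to 4.6 TPM. NOG, which encodes the BMP antagonist noggin, averaged 0.50 ± 0.39 TPM at D3 and 4.74 ± 1.26 TPM in monolayer (log2 change -1.95 ± 0.14, limma adjusted p = 2e-13). The antagonist-related gene FSTL1 was at 6.1 to 8.4 TPM, against 25.0 to 39.4 TPM. WFIKKN1, a growth factor binding protein gene, had a log2 change of 0.29 ± 0.13 (limma adjusted p = 0.048) with overlapping ranges, a call lost within each batch (adjusted p = 0.20 in batch 2 and 0.070 in batch 1). GDF11 fell to 2.7 to 6.1 TPM, against 7.7 to 17.3 TPM in monolayer, and the stress-linked ligand gene GDF15 differed by batch. In batch 2 GDF15 was at 0.2 to 1.4 TPM at D3, against 14.6 to 20.5 TPM in monolayer, and in batch 1 at 0.3 to 1.5 TPM at D3, against 0.6 to 1.3 TPM in monolayer, where the change did not pass (-0.16, limma adjusted p = 0.50).

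Of 15 tested target genes, 11 were lower and 4 higher at D3. Over all tested genes 68.2% were called lower and 12.7% higher, so the count of 11 lower is near the background. The fibronectin gene FN1 was at 6.3 to 8.9 TPM, against 568.9 to 1555.9 TPM in monolayer (log2 change -6.84 ± 0.15, limma adjusted p = 6e-26), and CCN2, the connective tissue growth factor gene, was at 0.8 to 1.8 TPM, against 112.6 to 248.5 TPM. SKIL and PMEPA1, feedback inhibitors of SMAD signalling, fell by 2.30 ± 0.13 and 3.56 ± 0.11 on the log2 scale. ID3 and ID2, relatives of ID1, rose with it, with log2 changes of 3.65 ± 0.089 and 2.38 ± 0.14. ID3 was at 540.8 to 818.1 TPM at D3, against 40.7 to 62.3 TPM in monolayer, and ID2 at 7.1 to 12.2 TPM, against 0.5 to 2.2 TPM. TGIF2, a SMAD corepressor gene, rose slightly (log2 change 0.21 ± 0.066, limma adjusted p = 0.005) with overlapping ranges.

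The next comparison sets untreated D11 spheroids against D3 spheroids. Time in culture and the absence of Y27632 after day 3 cannot be told apart in it. BMP2, TGFBI, SMAD7, ID1, FSTL3, TGFB1 and INHBA were higher at D11, BMP2 7.17 times as a ratio of means, while FST and TGFB2 did not pass the test. Of the 9 tested genes, 7 were higher and 0 lower by limma, with 1 lower (TGFB2) at an unadjusted p under 0.05. Over all tested genes 33.6% were called higher and 35.8% lower, and the median log2 change was 1.35 for the 9 and -0.024 for all. Libraries did not overlap for 5 of the 7, as for 19.1% of all tested genes upwards and 19.0% downwards. With mitochondrial genes removed before rescaling, the median of all genes moved by -0.49, and the calls over all genes became 1663 higher and 8018 lower, beside 4102 and 4370 on deposited TPM.

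BMP2 was at 47.4, 53.5 and 101.8 TPM (lowest, median, highest) in D11 untreated libraries, against 6.9, 9.4 and 13.1 TPM at D3. The lowest D11 library was above every D3 library, and D11 batch 2 (85.5 to 101.8 TPM) lay above D11 batch 1 (47.4 to 53.5 TPM). The log2 change was 2.73 ± 0.16 (limma adjusted p = 4e-15), with 3.18 in batch 2 and 2.29 in batch 1. TGFB1 was at 41.4, 45.4 and 59.4 TPM at D11, against 24.3, 30.5 and 35 TPM at D3, with no overlap and a log2 change of 0.77 ± 0.084 (limma adjusted p = 2.2e-09). INHBA was at 14.8, 19.6 and 22.3 TPM, against 12.3, 13.7 and 18.3 TPM, which overlapped. Its log2 change of 0.49 ± 0.18 (limma adjusted p = 0.016) was 0.40 without a batch term (adjusted p = 0.12) and -0.08 with mitochondrial genes removed (adjusted p = 0.72). TGFB2 was at 0.1, 0.3 and 0.3 TPM, against 0.3, 0.4 and 0.5 TPM, and did not pass (log2 change -0.17 ± 0.080, limma adjusted p = 0.057). At values of 1 decimal so near 0 that call turned with small choices: the adjusted p was 0.031 without any 1 of D11 untreated libraries 4, 6 and 7, 0.046 without D3 library 4 and 0.047 without D3 library 9. TGFB2 was also called lower with mitochondrial genes removed.

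Of the antagonists, FSTL3 was at 212.6, 228.8 and 296.6 TPM at D11, against 72.2, 92.7 and 116.0 TPM at D3, and FST at 25.2, 28.9 and 34.2 TPM, against 13.6, 26.2 and 34.4 TPM. FSTL3 libraries did not overlap, and the gene rose by 1.36 ± 0.12 on the log2 scale (limma adjusted p = 5.1e-11), whereas the D11 range of FST lay inside its D3 range. The log2 change of FST, 0.21 ± 0.16, did not pass (limma adjusted p = 0.26) and was -0.37 with mitochondrial genes removed (adjusted p = 0.039). SMAD7 was at 6.0, 6.2 and 9.7 TPM at D11, against 1.4, 2.0 and 3.2 TPM at D3. It did not overlap and had a log2 change of 1.46 ± 0.11 (limma adjusted p = 4.9e-13).

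Among the response genes, TGFBI was at 379.0, 438.8 and 508.6 TPM at D11, against 103.1, 174.5 and 198.5 TPM at D3. All D11 libraries were above all D3 libraries, with a log2 change of 1.58 ± 0.12 (limma adjusted p = 1.2e-12). ID1 was at 984.8, 1466.5 and 1812.2 TPM at D11, against 356.4, 505.3 and 997.1 TPM at D3. Only D3 library 5 reached into the D11 range. The log2 change of ID1 was 1.35 ± 0.18 (limma adjusted p = 1e-07), with 0.84 in batch 2 and 1.80 in batch 1, and D11 batch 2 (984.8 to 1087.8 TPM) lay below D11 batch 1 (1466.5 to 1812.2 TPM).

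Of 15 tested target genes, 13 were higher at D11, 1 was lower (ID3) and 1 did not pass, with a median log2 change of 1.49. Over all tested genes 33.6% were called higher and 35.8% lower, with a median of -0.024. ID2 was at 88.6 to 138.1 TPM at D11, against 7.1 to 12.2 TPM at D3, a log2 change of 3.41 ± 0.16 (limma adjusted p = 1e-17). SKIL was at 23.3 to 34.4 TPM, against 1.7 to 5.1 TPM, and PMEPA1 at 11.9 to 15.8 TPM, against 1.7 to 4.1 TPM. ID3 went down while ID1 and ID2 went up, averaging 412 ± 73.3 TPM at D11 and 657 ± 86.4 TPM at D3, a log2 change of -0.67 ± 0.098 (limma adjusted p = 5.7e-07). ID1 made up 72.3% ± 7.7 of the summed TPM of ID1, ID2 and ID3 at D11 untreated (SD, n = 7), against 45.1% ± 6.8 at D3 (n = 9).

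The remaining lists were divided at D11, as were all tested genes, of which 33.6% were called higher and 35.8% lower. Of 18 SMAD and regulator genes 10 were higher and 6 lower, among the lower TGIF2 (4.3 to 5.8 TPM, against 17.8 to 20.8 TPM at D3) and FKBP1A, whose product binds type I receptors (34.3 to 47.4 TPM, against 72.0 to 96.0 TPM). Of 10 receptor genes 5 were higher and 2 lower. The type I receptor gene TGFBR1 was at 16.5 to 23 TPM, against 10.3 to 13.1 TPM at D3, a log2 change of 0.71 that was 0.15 with mitochondrial genes removed (limma adjusted p = 0.11). ACVR1, a BMP and activin receptor gene, was at 1.5 to 2.3 TPM, against 0.7 to 1.2 TPM, while TGFBR2 was at 6.7 to 7.6 TPM, against 10.4 to 12.1 TPM. Of 6 antagonist genes 2 were higher and 3 lower. BAMBI, a decoy receptor gene, averaged 10.5 ± 3.55 TPM at D11 and 1.82 ± 0.45 TPM at D3 (log2 change 1.96 ± 0.16, limma adjusted p = 6.8e-12), and FSTL1 was at 2.9 to 3.9 TPM, against 6.1 to 8.4 TPM. Of 9 latency and activation genes 4 were higher and 3 lower, with LTBP2 at 4.7 to 5.4 TPM, against 2.3 to 3.4 TPM at D3, and THBS1 at 22.9 to 30.3 TPM, against 72.0 to 152.4 TPM. Of 6 other ligand genes 2 were higher and 2 lower. GDF15 was at 1.8 to 4.1 TPM in batch 2 and 11.7 to 22.0 TPM in batch 1 at D11, against 0.2 to 1.5 TPM, and INHBB, the activin βB subunit gene, at 0.9 to 3.1 TPM, against 0 to 0.4 TPM, while GDF11 was at 0.6 to 2.5 TPM, against 2.7 to 6.1 TPM.

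**Figure D3:**
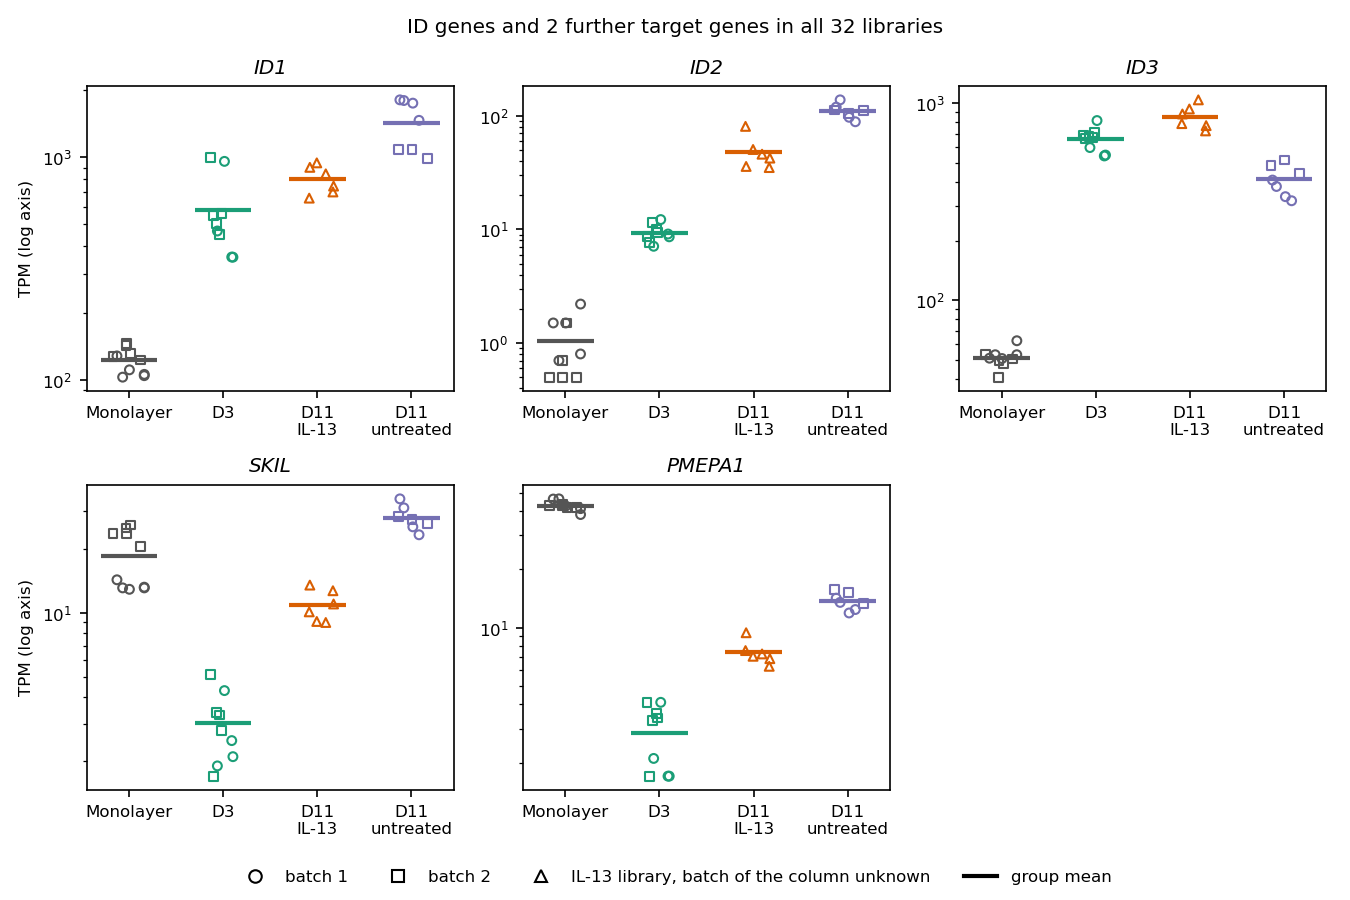
Level of ID1, ID2, ID3, SKIL and PMEPA1 in each of 32 libraries (TPM, log axes that differ between panels; circles batch 1, squares batch 2, triangles D11 IL-13 libraries, bars group means). SKIL and PMEPA1 have their lowest group means at D3 and lower means at D11 with IL-13 than at D11 untreated, and ID3 is the 1 gene of the 5 that is higher with IL-13 than untreated.

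Set against monolayer, untreated D11 spheroids combined high levels of BMP2, TGFBI and ID1 with low levels of FST, INHBA and TGFB2. ID1 was 11.6 times higher as a ratio of means, and FST 33.1 times lower. Of the 9 tested genes, 5 were higher and 3 lower, beside 21.0% and 63.5% of all tested genes. The log2 changes were 3.5 ± 0.18 for ID1 (limma adjusted p = 1.1e-17), 2.21 ± 0.16 for BMP2 (7.6e-14) and 1.47 ± 0.12 for TGFBI (9.7e-13). They were -4.97 ± 0.16 for FST (limma adjusted p = 2.1e-22), -2.64 ± 0.17 for INHBA (6.7e-15) and -1.85 ± 0.078 for TGFB2 (1.3e-19). The libraries of these 6 genes did not overlap between D11 untreated and monolayer, as was so for 13.4% of all tested genes upwards and 45.3% downwards.

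SMAD7 (log2 change 0.53 ± 0.11, limma adjusted p = 3.2e-05) and FSTL3 (0.35 ± 0.12, adjusted p = 0.0099) were higher with overlapping ranges. Neither held with mitochondrial genes removed: the change of SMAD7 was then 0.04 (adjusted p = 0.74) and that of FSTL3 -0.23 (adjusted p = 0.078). The change of FSTL3 did not pass in batch 2 alone either (0.14, limma adjusted p = 0.24), under quantile scaling (adjusted p = 0.089) or without a batch term (adjusted p = 0.051). TGFB1 returned to the monolayer range at D11 and did not pass (log2 change -0.03 ± 0.082, limma adjusted p = 0.73), but was 0.56 higher under median-of-ratios scaling (adjusted p = 1.8e-05) and -0.60 with mitochondrial genes removed (adjusted p = 1.1e-08), so that no direction is given for it. In batch 2 alone FST changed by -4.45, INHBA by -3.27, TGFB2 by -1.52 and ID1 by 2.96. In batch 1 alone FST changed by -5.43, INHBA by -2.07, TGFB2 by -2.14 and ID1 by 3.93.

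Of the pathway lists, 8 of 15 target genes were higher and 6 lower than in monolayer, beside 21.0% and 63.5% of all tested genes. ID2 was at 88.6 to 138.1 TPM, against 0.5 to 2.2 TPM in monolayer (log2 change 5.79 ± 0.15, limma adjusted p = 2.7e-24), and COL1A1, which is also in the fibroblast marker list, was at 57.9 to 78.1 TPM, against 3.3 to 9.5 TPM. FN1 (13.7 to 18.9 TPM, against 568.9 to 1555.9 TPM) and CCN2 (4.9 to 8.4 TPM, against 112.6 to 248.5 TPM) were still far lower. Lower too were 8 of 10 receptor genes, 8 of 9 latency and activation genes, 11 of 18 SMAD and regulator genes, and 3 of 6 genes in each of the other ligand and antagonist lists, beside 63.5% of all tested genes. THBS1 was 122 times lower at D11 untreated than in monolayer, and TGFBR2 6.40 times lower, while TOB1, an antiproliferative gene whose product binds SMADs, was 2.06 times higher.

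**Figure D4:**
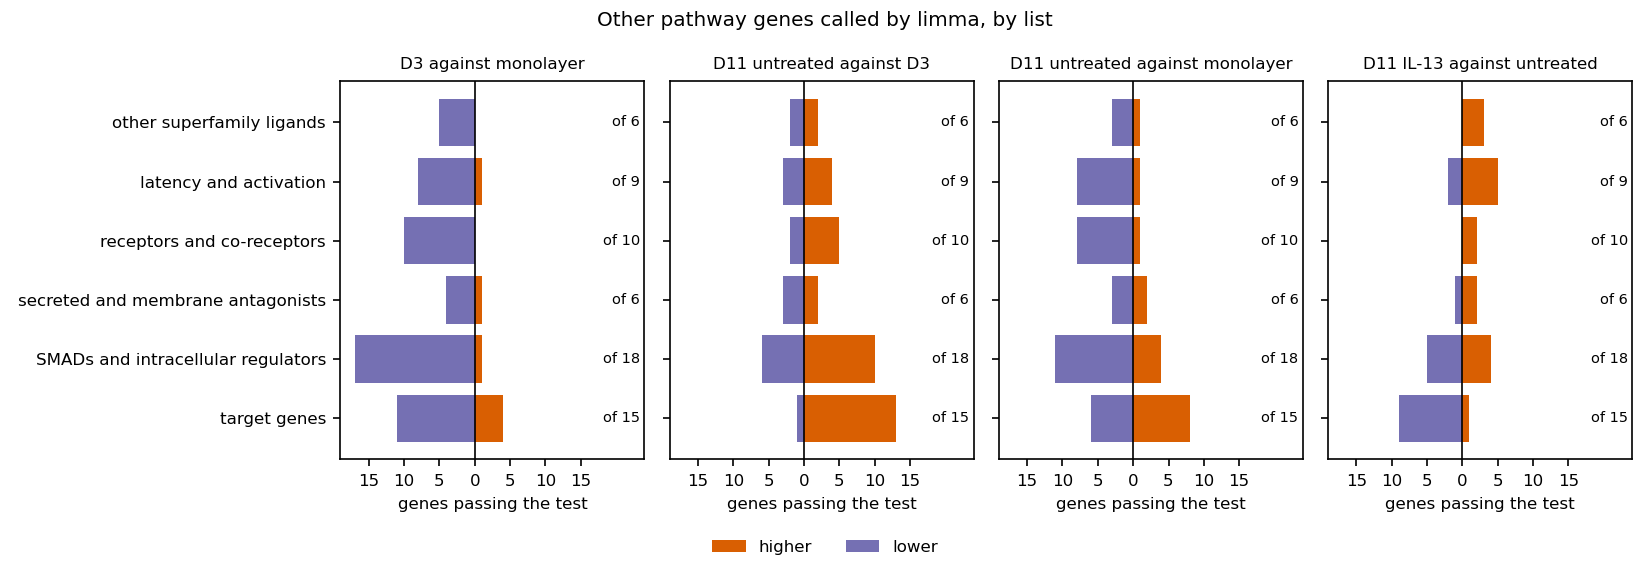
Number of genes of 6 pathway lists called higher (right of 0) or lower (left of 0) by limma in the 4 comparisons, with the number tested at the right of each panel. Target genes are the list with most rises at D11 untreated against D3 (13 of 15) and most falls with IL-13 (9 of 15). Over all tested genes 33.6% were called higher in the former comparison and 8.49% lower in the latter. The target list shares SKIL, PMEPA1 and SMAD6 with the SMAD and regulator list, and LTBP2 with the latency and activation list.

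The last comparison asks what IL-13, the cytokine tied to eosinophilic inflammation of the esophagus, did between days 3 and 11. BMP2, TGFBI, FST, INHBA, ID1 and SMAD7 were all lower in D11 IL-13 spheroids than in untreated ones, by 1.60 to 3.12 times as ratios of means, and TGFB2 was higher. Of the 9 tested genes, 6 were lower, 1 was higher, and FSTL3 and TGFB1 did not pass. Over all tested genes 8.49% were called lower and 39.2% higher, and the median log2 change was -0.80 for the 9 and 0.19 for all. All 7 called genes had libraries that did not overlap between the groups, as did 9.66% of all genes upwards and 4.03% downwards. Median-of-ratios scaling moved the median of all genes by -0.19 and gave 2348 higher and 2521 lower, beside 4785 and 1037 on deposited TPM.

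BMP2 was at 13.4, 18 and 39.3 TPM (lowest, median, highest) with IL-13, against 47.4, 53.5 and 101.8 TPM untreated. IL-13 library 1, the one that stood apart, was the highest for BMP2 and TGFBI and yet below every untreated library. The log2 change was -1.49 ± 0.18 (limma adjusted p = 1.3e-07), with -1.22 against the untreated libraries of batch 1 and -2.14 against those of batch 2. INHBA was at 5.7, 7.05 and 8.8 TPM with IL-13, against 14.8, 19.6 and 22.3 TPM untreated, and fell by 1.14 ± 0.20 (limma adjusted p = 3e-05). TGFB2 was at 0.5, 0.7 and 0.9 TPM with IL-13, against 0.1, 0.3 and 0.3 TPM untreated, a small rise in absolute level that did not overlap (log2 change 0.35 ± 0.089, limma adjusted p = 0.0021) and did not pass with a pseudocount of 5 (0.08, adjusted p = 0.11). TGFB1 was at 34.7, 47.4 and 57.5 TPM with IL-13, against 41.4, 45.4 and 59.4 TPM untreated (log2 change 0.00 ± 0.094, limma adjusted p = 0.98).

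FST was at 9.8, 13.6 and 15.7 TPM with IL-13, against 25.2, 28.9 and 34.2 TPM untreated. No IL-13 library reached the untreated range, and FST fell by 1.18 ± 0.18 (limma adjusted p = 7e-06). FSTL3, its relative, was at 132.5, 210.7 and 294.2 TPM with IL-13, against 212.6, 228.8 and 296.6 TPM untreated, with a log2 change of -0.09 ± 0.14 that did not pass (limma adjusted p = 0.63). SMAD7 was at 3.4, 4.6 and 5.9 TPM with IL-13, against 6.0, 6.2 and 9.7 TPM untreated. Its ranges nearly touched, and the log2 change of -0.49 ± 0.12 (limma adjusted p = 0.0014) was -0.37 against untreated batch 1 alone (adjusted p = 0.084).

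TGFBI was at 145.5, 164.6 and 243.3 TPM with IL-13, against 379.0, 438.8 and 508.6 TPM untreated, so that IL-13 libraries overlapped those of D3 and monolayer and none of the untreated ones. TGFBI fell by 1.30 ± 0.14 on the log2 scale (limma adjusted p = 5.6e-09). ID1 was at 656.1, 793.3 and 944.7 TPM with IL-13, against 984.8, 1466.5 and 1812.2 TPM untreated. Its change of -0.80 ± 0.20 (limma adjusted p = 0.0018) was -1.10 against untreated batch 1 and -0.41 against untreated batch 2 (adjusted p = 9.3e-05 and 0.024). Of the 6 IL-13 samples 5 were labelled batch 1, and the columns do not show which.

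Of 15 tested target genes, 9 were lower with IL-13, 1 was higher and 5 did not pass, beside 8.49% and 39.2% of all tested genes, and the list's median log2 change was -0.63. SKIL was at 9.0 to 13.5 TPM with IL-13, against 23.3 to 34.4 TPM, and PMEPA1 at 6.3 to 9.4 TPM with IL-13, against 11.9 to 15.8 TPM. COL1A1, a gene of this list that is also in the fibroblast marker list, was at a mean of 34.6 TPM with IL-13 and 69.9 TPM untreated. The fibroblast marker POSTN went the other way, at a mean of 3.43 TPM with IL-13 and 0.19 TPM untreated.

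ID1, ID2 and ID3 parted with IL-13. ID2 averaged 48.4 ± 16.9 TPM with IL-13 (n = 6) and 110 ± 16.0 TPM untreated (n = 7), a log2 change of -1.26 ± 0.18 (limma adjusted p = 1.5e-06). ID3 averaged 858 ± 119 TPM with IL-13 and 412 ± 73.3 TPM untreated, a log2 change of 1.09 ± 0.11 (limma adjusted p = 3e-09). ID3 libraries did not overlap, at 724.8 to 1041.9 TPM with IL-13 and 320.2 to 516.0 TPM untreated, and the change was 1.24 against untreated batch 1 and 0.83 against untreated batch 2. ID1 made up 46.8% ± 2.8 of the summed TPM of the 3 genes with IL-13 and 72.3% ± 7.7 untreated, beside 45.1% ± 6.8 in D3 spheroids.

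With IL-13, 39.2% of all tested genes were called higher and 8.49% lower, the shares to set beside the list counts that follow. Of 10 receptor genes 2 were higher and 0 lower by limma, also at an unadjusted p under 0.05. TGFBR2 was at 7.6 to 10.4 TPM, against 6.7 to 7.6 TPM untreated (log2 change 0.37 ± 0.063, limma adjusted p = 2.5e-05). The change of TGFBR2 was 0.14 under median-of-ratios scaling (adjusted p = 0.034) and 0.14 under quantile scaling (adjusted p = 0.059). RGMB was at 5.2 to 9.2 TPM, against 4.6 to 5.3 TPM, a log2 change of 0.43 that was 0.22 under median-of-ratios scaling and 0.20 under quantile scaling (limma adjusted p = 0.022 and 0.031). Of 18 SMAD and regulator genes 4 were higher and 5 lower. TGIF2 was at 6.5 to 11.4 TPM with IL-13, against 4.3 to 5.8 TPM, and SMAD1, a BMP SMAD gene, at 2.5 to 5.3 TPM, against 1.3 to 2.6 TPM. Of 6 antagonist genes 2 were higher and 1 was lower, with FSTL1 at 4.9 to 7.1 TPM, against 2.9 to 3.9 TPM. The other higher gene, NBL1, lost its call under median-of-ratios scaling (0.15, limma adjusted p = 0.16). The count of lower antagonist genes was 0 to 2 on leaving out 1 library. Of 9 latency and activation genes 5 were higher and 2 lower. The count of lower ones was 1 to 2 on leaving out 1 library. Among the higher ones, LTBP4 lost its call under median-of-ratios scaling (0.23, limma adjusted p = 0.22). ITGAV, the αV integrin gene, was at 14.2 to 22.9 TPM, against 10.0 to 13.9 TPM, and ITGB6, which pairs with it, at 2.6 to 4.9 TPM, against 4.9 to 7.1 TPM, though the change of ITGB6 did not pass against untreated batch 2 alone (limma adjusted p = 0.099). Of 6 other ligand genes 3 were higher, among them INHBE, an inhibin β subunit gene, at a mean of 2.97 ± 1.09 TPM with IL-13 and 1.01 ± 0.60 TPM untreated, and AMH, at 2.10 ± 0.91 TPM with IL-13 and 0.81 ± 0.42 TPM untreated, both with overlap. The change of INHBE did not pass against untreated batch 1 alone (limma adjusted p = 0.061).

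**Figure D5:**
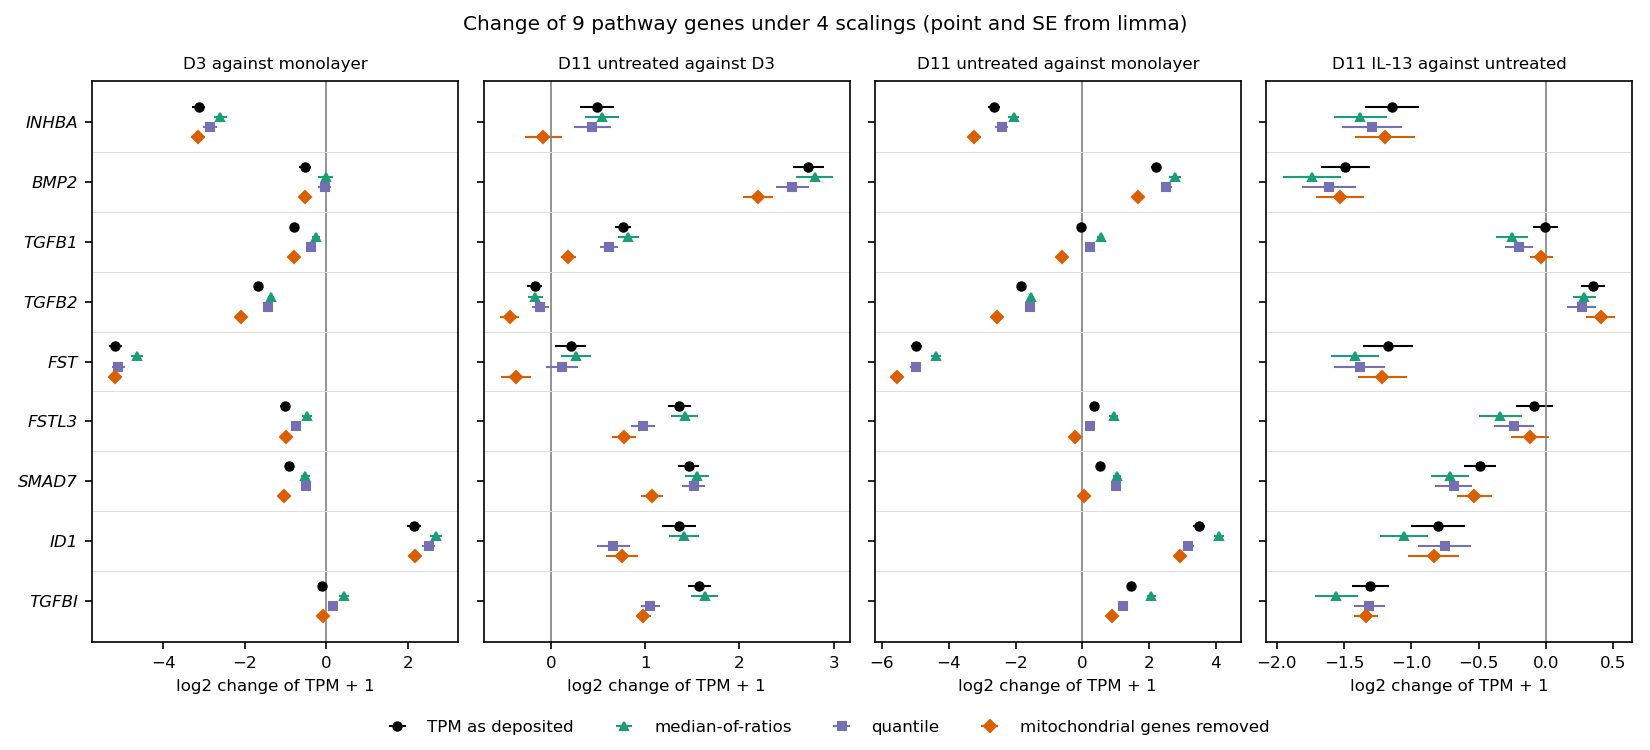
Log2 change of TPM plus 1 for 9 genes in the 4 comparisons (points, with SE bars from limma) on deposited TPM and under median-of-ratios scaling, quantile scaling and removal of mitochondrial genes. FST, INHBA and TGFB2 lie left of 0 and ID1 right of 0 against monolayer under all 4 scalings, and BMP2, INHBA, FST, SMAD7, ID1 and TGFBI lie left of 0 with IL-13 under all 4, while TGFB1 at D11 against monolayer changes side.

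Over the 4 groups, the mean of FST ran in the order monolayer, D11 untreated, D3, D11 IL-13, at 100%, 3.02%, 2.61% and 1.35% of its highest mean, and INHBA had the same order at 100%, 13.2%, 9.76% and 4.88%. D11 untreated and D3 libraries overlapped for both genes, and those of D3 and D11 IL-13 overlapped for FST and not for INHBA. TGFB2 ran monolayer, D11 IL-13, D3, D11 untreated, with D11 IL-13 and D3 libraries meeting at 0.5 TPM and D3 and D11 untreated libraries at 0.3 TPM. ID1 ran upwards in the order monolayer, D3, D11 IL-13, D11 untreated, at 8.59%, 40.5%, 55.9% and 100% of its highest mean, with the D3 and D11 IL-13 ranges overlapping. BMP2 and TGFBI were highest at D11 untreated, followed by D11 IL-13, monolayer and D3. Their D11 IL-13 group overlapped monolayer, as did their D3 group, and D11 untreated stood clear of all 3. FSTL3, SMAD7 and TGFB1 shared a lowest mean at D3. The other 3 groups overlapped for FSTL3 and for TGFB1, and for SMAD7 D11 untreated overlapped monolayer alone, which overlapped D11 IL-13. BMP6 was at 0.1 TPM in D11 untreated library 2 and was not tested.

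The tested genes whose log2 levels followed each gene most closely over the 32 libraries are named as a description. They were EHD4, ARHGAP29 and DPP9 for FST (Pearson r 0.994, 0.991 and 0.990) and SAMD4A, ADTRP and ETS1 for INHBA (0.986, 0.986 and 0.985). TMEM79 and TGM1 were among the 3 for ID1 (0.975 and 0.972). TGM1 encodes the transglutaminase that crosslinks the cornified envelope. For BMP2 they were TRPV3, SIK1B and OSER1 (0.968, 0.963 and 0.959), for TGFBI they included TUBB2B and TUBB2A (0.956 and 0.955), and for TGFB2 they were RGMB, VOPP1 and VAC14 (0.984, 0.984 and 0.983). SMURF1, which encodes a ubiquitin ligase that works with SMAD7 at the receptors, came after FLCN and ARID3A for SMAD7 (0.956). The libraries fall into a few groups with large differences between them, and genes that share those differences have a high r.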

How the data were processed

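Total RNA of EPC2 cultures was sequenced, and the deposited table holds TPM per gene symbol, made by the authors, to 1 decimal. Per the submitters' processing notes the genome build was hg38. No source used here gives the aligner, quantifier, annotation or strand handling. Of the 32 columns, 26 were matched to a sample and the 6 D11 IL-13 columns to their group, since their numbers differ from the sample titles. Each IL-13 library was therefore given the batch share of its group.

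Levels were tested as log2(TPM + 1) by limma 3.58.1 (R 4.3.3) in 1 fit over all 32 libraries, which held terms for batch and group and a mean-variance trend. A gene entered the test if at least 6 libraries reached 1 TPM, as 12221 did, with Benjamini-Hochberg adjustment over all of them and a threshold of 0.05. Fold changes on this scale understate the change of low genes. Batch differences were tested as interactions among the 26 libraries of known batch. The fit was tested on simulated data. The 10 genes and the pathway lists were chosen with earlier results of these data known. The text names all 10 genes, the 2 largest rises and falls of each list and comparison, and the 3 most similar genes, apart from a few that are not reported here. COL1A1 is also named as a marker, and the target genes plotted by library were chosen after their values were seen.

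Sequences came from RefSeq (GRCh38.p14) and gene positions from GENCODE 29 of the same build. Among 117 pairs of libraries within groups, the most alike shared 3.56% equal values, and none was taken for a duplicate. Alternatives were other pseudocounts (0.1 and 5), filters, scalings, batch handling, a replicate block and leaving out each library in turn.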

Additional observations from a re-analysis of the deposited data

Results flagged for a closer look

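A pair of values stood apart within their group by Dixon's criterion, among 37 sets of a gene in a group, where chance marks about 1 in 20: BMP6 at 0.1 TPM in D11 untreated library 2, where the other libraries were listed at 0, and SMAD7 at 3.2 TPM in D3 library 4, above 1.4 to 2.3 TPM in the others. With all other libraries at 0, any single value above 0 meets the criterion, so that rate does not apply to BMP6. D3 library 4 is also one of the libraries that went against its batch label on the first principal component.

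The change between groups differed by batch in 14 of 27 tests of the 9 genes (limma interaction, adjusted p under 0.05 over all tested genes). For D3 against monolayer, batch 2 minus batch 1 was 0.92 for FST, -0.56 for FSTL3, -1.49 for INHBA, -0.56 for BMP2, 0.41 for TGFB2 and -0.48 for SMAD7, on the log2 scale. That is 6 of the 9, beside 45.2% of all tested genes. For D11 untreated against D3 it was 0.89 for BMP2, 0.47 for SMAD7 and -0.96 for ID1, 3 of 9 beside 23.8%. For D11 untreated against monolayer it was 0.97 for FST, -0.40 for FSTL3, -1.21 for INHBA, 0.61 for TGFB2 and -0.97 for ID1, 5 of 9 beside 48.3%. The direction of the change was the same in both batches for each of these. Within groups, 62.1% of genes differed between the batches in monolayer, 41.2% at D11 untreated and 0% at D3 by limma (1796 of 12221 at an unadjusted p under 0.05), the group in which libraries 4 and 7 lay with the other batch.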

How the results depend on the processing

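Of 1036 recomputed values of the 9 genes, 995 kept their direction and side of the threshold, 10 lost the call, 11 gained it and 20 reversed. Of 2245 values of the list genes picked by the naming rule, 2180 kept both, 61 lost the call and 4 reversed. Reversed values of genes that did not pass were, for TGFB1 with IL-13, 0.036 with only the 2 groups fitted, 0.0079 without D3 libraries 4 and 7, 0.11 against untreated batch 1, and -0.063 to 0.080 on leaving out 1 library; for FSTL3 with IL-13, -0.18 to 0.047 on leaving out 1 library; for TGFB1 at D11 against monolayer, 0.56 (median-of-ratios), 0.24 (quantile), 0.050 (batch 2 alone) and 0.00077 (replicate block); and for TGFBI at D3, 0.43 (median-of-ratios), 0.17 (quantile) and 0.10 (batch 2 alone). With mitochondrial genes removed, D11 untreated against D3 gave -0.37 for FST, -0.080 for INHBA and -0.12 for ITGAV, and D11 untreated against monolayer gave -0.23 for FSTL3, -0.25 for ITGB8 and -0.26 for TGFBR1. BAMBI at D11 against monolayer was -0.022 in batch 2 alone. The cause was not tested. Without D3 libraries 4 and 7 no call of the 9 genes changed.

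Among the 9 genes, the counts that moved by more than 1.5 times were these: higher with IL-13, 0 with a pseudocount of 5 or a mean of at least 5 TPM, which removes TGFB2 from the test (1 in the main analysis); higher at D11 untreated than monolayer, 3 with mitochondrial genes removed (5); higher at D3, 2 under median-of-ratios scaling (1); and lower at D11 untreated than D3, where the main count was 0, 1 with a pseudocount of 0.1, 2 with mitochondrial genes removed, 1 with only the 2 groups fitted, 1 in batch 1 alone and 0 to 1 on leaving out 1 library.

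Over all genes, asking for a mean of at least 5 TPM tested fewer genes (7348). It gave 1031 higher and 4994 lower at D3 against monolayer, 2656 higher and 2685 lower at D11 untreated against D3, 1660 higher and 4606 lower at D11 untreated against monolayer, and 613 lower with IL-13. Median-of-ratios scaling gave 4061 and 4050, 4902 and 4915, and 2348 and 2521, for D3 and D11 untreated against monolayer and for IL-13. Quantile scaling gave 3706 and 4421 at D3, 4352 higher at D11 untreated against monolayer, and 2289 and 2536 with IL-13. Removing mitochondrial genes gave 1663 and 8018 at D11 untreated against D3, and 1479 higher against monolayer. Against untreated batch 1 alone, IL-13 gave 2176 higher.

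Whether replicate numbers pair the libraries is not known. Same-numbered deviations from the group means correlated at -0.44 to 0.36 over 9 pairs (D3 and monolayer), -0.16 to 0.16 over 7 pairs (D11 untreated and D3) and -0.02 to 0.06 over 7 pairs (D11 untreated and monolayer). Of these pairs 2, 3 and 6 shared a batch label. The deviations also hold the batch difference, so the correlations cannot settle the pairing. With the replicate block, 1489 genes were higher and 8190 lower at D3 against monolayer, and each count of the 9 genes was unchanged. For IL-13 against untreated, no paired analysis was possible because the titles of those samples share no numbers and the IL-13 column numbers are not those of the titles. The depth behind TPM is unknown, and levels below 1 TPM, those of TGFB2 in spheroids, rest on few steps of 0.1.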
